A study of Mus musculus with 20 samples.

Results

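The 10 genes described here encode chains of the receptors through which microglia read interleukins: *Il10ra*, *Il10rb*, *Il4ra*, *Il6ra*, *Il6st*, *Il13ra1*, *Il1rap*, *Il17ra*, *Il2rg* and *Il15ra*. They were taken by name, through their Ensembl identifiers, from a table of 55487 gene identifiers, and all 10 had a row. The table holds RNA sequencing counts of 20 cultures of BV-2 cells, an immortalized mouse microglial line made from juvenile C57BL/6 brain cultures. The cultures form 4 groups of 5: young (control) BV-2 microglia and aged BV-2 microglia, each left untreated or given lipopolysaccharide (LPS), a bacterial cell wall component that activates toll-like receptor 4, at 100 ng/ml for 6 hours. The labels give all groups a wild-type genotype. "Aged" stands for long-term cultivation of the same line, started from a higher passage than the control cells. The model is therefore a proliferating line grown alone, without neurons, astrocytes or an ageing animal, and whether the aged cultures came from more than 1 long-term cultivation is not given in the sources used here. The labels give each culture a batch number from 1 to 5 that is shared by the 4 groups. P-values measure the spread between these cultures.

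The libraries held 11371508 to 16829292 assigned reads each, and 12799 genes passed a filter on low counts and were tested. All 10 receptor genes passed. *Il15ra* passed through the LPS libraries alone: the filter's level was reached in 5 of 5 young LPS libraries, 2 of 5 aged LPS libraries and no untreated library, so counts below are also given for the other 9 genes. Levels are given as CPM, the read count of a gene scaled to the TMM-adjusted library size, and 3 counts, the floor of detection used here, correspond to 0.165 to 0.296 CPM. Of 12 markers of microglia and macrophages, 10 had a mean of at least 1 CPM in every group, with *Csf1r* at 562 to 998 CPM and *Cd68* at 753 to 1409 CPM. The homeostatic microglial markers *Cx3cr1* and *P2ry12* stayed below 1.9 CPM in every library. The summed level of the markers of astrocytes, neurons, oligodendrocytes, endothelial cells and fibroblasts, or lymphocytes did not exceed 1.78 CPM for any list in any library. The summed microglia and macrophage markers lay at 2947 to 4148 CPM in young, 3493 to 4828 in young LPS, 2477 to 3625 in aged and 2963 to 4210 in aged LPS cultures.

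Interleukin receptors work as pairs. A chain such as IL-10Rα, IL-6Rα or IL-4Rα binds the cytokine, and a chain shared with other receptors completes the signalling complex. The shared chain is IL-10Rβ for the IL-10 family, gp130 (*Il6st*) for the IL-6 family and IL-1RAcP (*Il1rap*) for IL-1, IL-33 and IL-36. For IL-2, IL-4, IL-7, IL-15 and IL-21 it is the common γ chain (*Il2rg*). Most of these complexes signal through Janus kinases (JAK) and STAT factors. The IL-1 and IL-17 receptors instead use the adaptors MyD88 and Act1 and converge on NF-kappaB. In microglia IL-10 and IL-4 are known for restraining and redirecting inflammatory activation.

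Ordered by TPM (counts divided by exon length, scaled to a fixed total), *Il2rg* and *Il10rb* led. *Il2rg* was the most abundant of the 10 in every group, at 148 ± 5.11 TPM (SD, n = 5) in young, 190 ± 8.32 in young LPS, 146 ± 7.71 in aged and 187 ± 11.1 in aged LPS cultures. *Il10rb* came next in every group at 113, 136, 89.7 and 121 TPM in the same order, and its range met that of *Il2rg* in none of them. *Il6ra* and *Il6st* followed in untreated cultures, at 48.9 ± 5.56 and 45.5 ± 1.89 TPM in the young, where their ranges overlapped. After LPS the place behind *Il10rb* was taken by *Il13ra1*, at 53.2 ± 6.66 TPM in young and 39.3 ± 4.54 TPM in aged cultures, where its range overlapped that of *Il6st*. *Il4ra*, *Il17ra* and *Il10ra* lay between 7.74 and 30.9 TPM in every group mean. *Il1rap* and *Il15ra* stood far below the rest, at or under 0.378 TPM in every group except for *Il15ra* after LPS, at 3.16 ± 1.10 TPM in young and 0.504 ± 0.250 TPM in aged cultures.

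**Figure D1:**
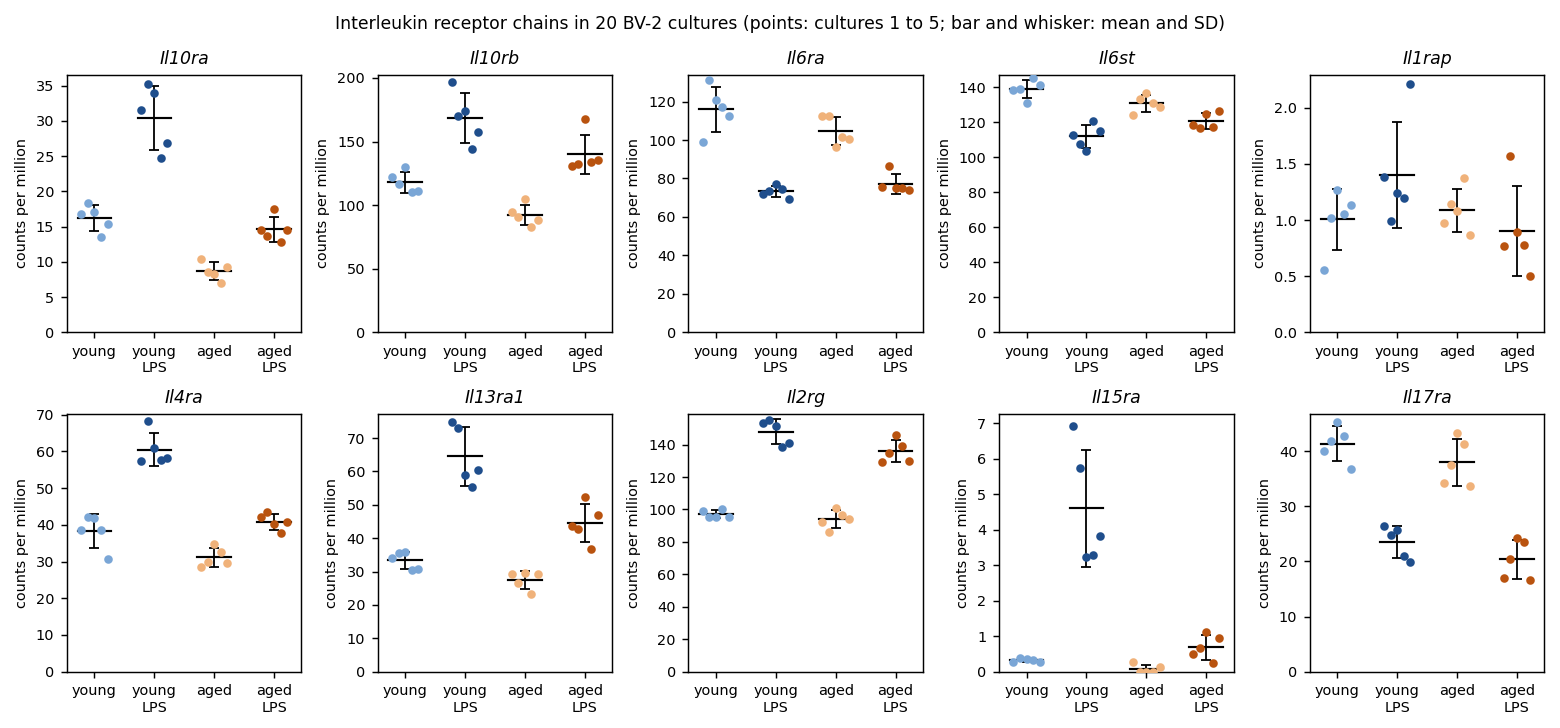
CPM (y axis, linear, from 0) of the 10 receptor chains in young, young LPS, aged and aged LPS cultures (x axis); points are the 5 cultures of a group in order of their batch number, and the bar and whisker are the mean and SD. The points of *Il6ra*, *Il6st* and *Il17ra* drop with LPS at both ages, and the aged LPS points of *Il10ra*, *Il4ra*, *Il13ra1* and *Il15ra* lie below all young LPS points.

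With LPS, 9 of the 10 genes changed in young cultures by edgeR's quasi-likelihood test (Benjamini-Hochberg adjusted p below 0.05): 6 rose (*Il10ra*, *Il10rb*, *Il4ra*, *Il13ra1*, *Il2rg*, *Il15ra*) and 3 fell (*Il6ra*, *Il6st*, *Il17ra*). Of all genes tested, 64.6% changed in this comparison, 31.2% upwards and 33.5% downwards, so a change as such is no mark of these receptors. The same 9 genes changed in the same directions in aged cultures, where 54.4% of all genes changed, 27.5% upwards and 26.9% downwards. Without *Il15ra* the count was 8 of 9 at each age. The median log2 fold change of the 10 was 0.56 in young and 0.46 in aged cultures, beside -0.01 and 0.00 over all genes. Without *Il15ra* the median was that of *Il10rb*, 0.51, in young and that of *Il4ra*, 0.39, in aged cultures. Scaling by library size alone shifted the median of all genes by -0.22 in young and -0.16 in aged cultures, and left 27.3% and 28.4% of the called genes higher instead of 48.2% and 50.6%. No receptor changed direction under it.

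Between ages, the receptors called with TMM scaling over all 5 batches were lower in aged cultures. Untreated, 3 of 10 were lower (*Il10ra*, *Il10rb*, *Il4ra*), against 11.5% of all genes called in either direction and 7.81% called lower. After LPS, 5 of 10 were lower (the same 3, *Il13ra1* and *Il15ra*), against 29.0% called and 15.0% called lower; without *Il15ra* this was 4 of 9. The age comparisons at rest and after LPS share no cultures with each other, but they share batch numbers and are not independent. Deviations of same-numbered cultures of an age correlated at a mean r of 0.268. Scaling by library size alone moved the share of all calls that were higher after LPS from 48.3% to 70.1%. *Il6st* was then called higher in aged LPS cultures (0.19 on the log2 scale, adjusted p = 0.00320, against 0.11 and 0.0780), as it was without batch 4 (0.15, adjusted p = 0.0393), and *Il10rb* was no longer called after LPS (-0.18, adjusted p = 0.0612). The LPS response itself, as the difference between ages, was called for 0 of 10 receptors, against 6.39% of all genes. At an unadjusted p below 0.05 edgeR gave 3 (*Il4ra*, *Il6ra*, *Il6st*) and DESeq2, which also called 0 after adjustment, gave 3. Under library size scaling, which moved the share of higher calls over all genes from 64.4% to 81.3%, *Il6st* was called.

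**Figure D2:**
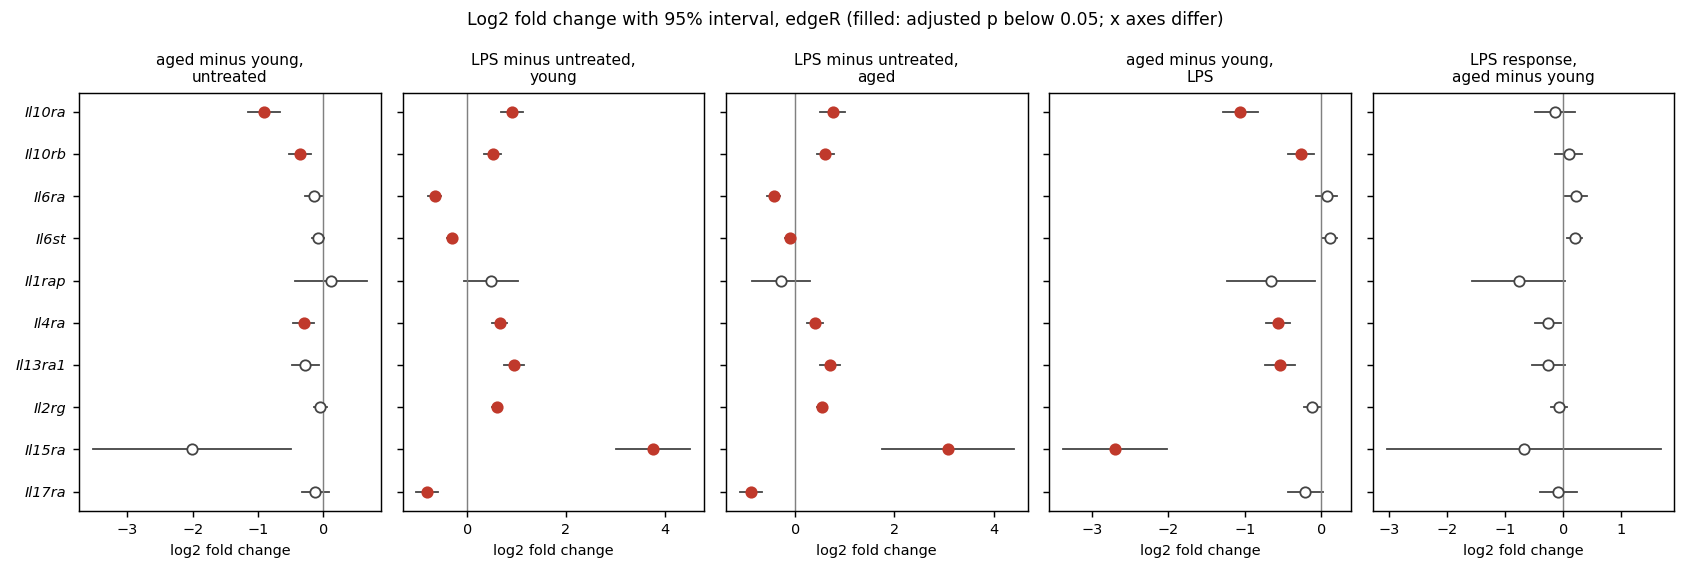
Log2 fold change (x axis, scale differs between panels) of each receptor chain (y axis) in the 5 comparisons, with its 95% interval as a line; filled points passed an adjusted p of 0.05 in edgeR. Both LPS panels have 6 filled points above 0 and 3 below, both age panels have filled points below 0 alone, and the last panel has none. The filled points of *Il15ra* belong to a gene that entered the fit through the LPS libraries alone.

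*Il10ra*, on chromosome 9 at 45253837 to 45269149 (minus strand, GRCm38), encodes the chain that binds IL-10 and docks JAK1 and STAT3. It was the receptor gene with the lowest adjusted p in both age comparisons. Young cultures 1 to 5 had 16.8, 18.3, 17.1, 13.6 and 15.4 CPM, and aged cultures 10.3, 8.61, 8.22, 6.98 and 9.26 CPM. After LPS the young had 31.6, 35.2, 33.9, 24.7 and 26.9 CPM and the aged 14.5, 13.7, 17.5, 12.9 and 14.5 CPM. The aged LPS cultures thus sat within reach of the untreated young ones, whose range they overlapped, and below every young LPS culture. The log2 fold change of aged against young was -0.91 ± 0.12 (SE, adjusted p = 3.28e-05) untreated and -1.06 ± 0.11 (adjusted p = 6.35e-07) after LPS, lower in 5 of 5 batches each time. In bulk RNA, fewer cells expressing a gene and less RNA per cell cannot be told apart. LPS raised *Il10ra* by 0.90 ± 0.11 on the log2 scale in young (adjusted p = 2.15e-07) and by 0.76 ± 0.12 in aged cultures (adjusted p = 1.40e-05), and these responses differed by -0.15 with a 95% interval of -0.49 to 0.19.

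*Il10rb*, the signalling partner of IL-10Rα that docks TYK2, lies on chromosome 16 at 91406164 to 91425834 (plus strand). It had 118 ± 8.22 CPM (SD, n = 5) in young and 92.3 ± 8.01 CPM in aged cultures, with no overlap, a log2 fold change of -0.36 ± 0.08 (adjusted p = 0.00625). After LPS it reached 197, 170, 174, 144 and 157 CPM in young and 131, 132, 168, 134 and 136 CPM in aged cultures. Aged culture 3 stood inside the young range and the other 4 below it, and the log2 fold change was -0.27 ± 0.08 (adjusted p = 0.0163). The gene was lower in aged cultures in 5 of 5 batches in both states, but some settings lost the calls. Untreated, the adjusted p became 0.0570 without batch 2, at a log2 fold change of -0.35. After LPS it became 0.112 without batch 2 (-0.24), 0.143 without batch 1 (-0.18) and 0.0612 with library sizes alone (-0.18). LPS raised the gene by 0.51 in young and 0.60 in aged cultures (log2). The exons of *Il10rb* share 569 bases, 14.9% of their length, with the same-strand gene *Gm21970* (549 to 916 counts per library), so part of its reads could have been assigned elsewhere.

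The share of the ligand-binding chain was lower in aged cells. Per exon length, *Il10ra* stood at 0.150, 0.171, 0.143, 0.134 and 0.151 of *Il10rb* in young cultures and at 0.120, 0.104, 0.0858, 0.0918 and 0.114 in aged cultures. After LPS the ratio was 0.175, 0.225, 0.212, 0.187 and 0.186 in young and 0.121, 0.113, 0.114, 0.105 and 0.116 in aged cultures. No aged culture reached a young one in either state. The log2 ratio differed between ages by -0.55 untreated and -0.79 after LPS, each with an exact two-sided permutation p of 0.00794, the smallest that 5 against 5 allows, and an adjusted p of 0.0331 over the 25 ratio tests. It rose with LPS by 0.39 in young cultures (adjusted p = 0.0331, exact permutation test) and by 0.15 in aged cultures (adjusted p = 0.233), and the difference of these changes was -0.24 (adjusted p = 0.0916). *Il10* itself was at 0 to 5 counts in every library.

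*Il4ra*, on chromosome 7 at 125552120 to 125579474 (plus strand), encodes the chain that binds IL-4 and, with IL-13Rα1, serves IL-13. Untreated it had 38.6, 42.1, 42.0, 38.5 and 30.8 CPM in young and 28.5, 30.0, 34.7, 32.7 and 29.6 CPM in aged cultures. After LPS it had 57.4, 68.3, 61.0, 57.6 and 58.3 CPM in young and 42.3, 43.4, 40.1, 37.8 and 40.7 CPM in aged cultures. The untreated ranges overlapped through young culture 5, while after LPS every aged culture was below every young one. Aged against young, the log2 fold change was -0.30 ± 0.08 untreated (adjusted p = 0.0132) and -0.57 ± 0.08 after LPS (adjusted p = 8.39e-06). The untreated call was lost without batch 1 (adjusted p = 0.0647) or batch 2 (0.103). LPS raised *Il4ra* by 0.65 ± 0.08 in young and 0.39 ± 0.08 in aged cultures. The difference of -0.26 (95% interval -0.49 to -0.04) did not pass adjustment over all genes (adjusted p = 0.168). Within batches it was -0.004 in batch 1 and -0.17 to -0.46 in batches 2 to 5.

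*Il13ra1*, on chromosome X at 36112110 to 36171259 (plus strand), encodes the IL-13-binding partner of IL-4Rα in the type II receptor of myeloid cells. Young cultures had 34.0, 35.5, 35.8, 30.4 and 30.9 CPM and young LPS cultures 74.7, 73.1, 58.8, 55.4 and 60.5 CPM. Aged cultures had 29.2, 26.5, 29.5, 23.3 and 29.2 CPM and aged LPS cultures 43.7, 42.6, 52.2, 36.8 and 46.8 CPM. Here the ranges of the 4 groups did not meet. The LPS rise was 0.95 ± 0.10 in young and 0.69 ± 0.10 in aged cultures (log2; adjusted p = 9.13e-09 and 2.37e-06), and aged LPS cultures were lower than young ones by -0.53 ± 0.09 (adjusted p = 0.000168). Untreated, aged against young was -0.28 ± 0.10 with an adjusted p of 0.0677, which became 0.0177 in the fit with the batch number as a block.

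*Il2rg*, on chromosome X at 101264378 to 101268255 (minus strand), encodes the common γ chain and had the smallest age differences of the 6 genes that LPS raised. It rose from 97.0 ± 2.41 to 148 ± 7.61 CPM in young and from 94.0 ± 5.40 to 136 ± 6.94 CPM in aged cultures (SD, n = 5), log2 fold changes of 0.61 ± 0.05 and 0.53 ± 0.05. The age difference was -0.05 untreated (95% interval -0.15 to 0.05). After LPS it was -0.12 with an adjusted p of 0.0628, which became 0.0463 with the batch block and 0.0356 in DESeq2. A same-strand gene, *Gm20489* (578 to 956 counts per library), shares 728 bases, 30.5% of the exons of *Il2rg*. *Il4ra* per exon length stood at 0.149 to 0.175 of *Il2rg* in young LPS and at 0.108 to 0.130 in aged LPS cultures, with a log2 difference of -0.44 (exact permutation p = 0.00794, adjusted p = 0.0331); untreated the difference was -0.25 (adjusted p = 0.0661). The ratio of *Il4ra* to *Il13ra1* differed between ages by -0.02 untreated and -0.03 after LPS (exact permutation p = 0.841 and 0.778). *Il4* and *Il13* were at 0 to 2 counts in every library.

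*Il15ra*, on chromosome 2 at 11705290 to 11734317 (plus strand), encodes the high-affinity chain that presents IL-15 on the cell surface, and it had the largest changes of the 10. Untreated young cultures had 4, 6, 6, 5 and 4 reads and untreated aged cultures 4, 0, 0, 0 and 2 reads. Young LPS cultures had 70, 69, 47, 44 and 52 reads, or 6.92, 5.72, 3.24, 3.28 and 3.83 CPM, and aged LPS cultures 7, 8, 16, 3 and 13 reads, or 0.492, 0.660, 1.10, 0.232 and 0.940 CPM. The lowest young LPS culture was above the highest aged LPS culture, and the aged LPS range overlapped that of untreated young cultures. Summed over 5 libraries, the LPS rise was 13.6-fold in young (95% interval 9.04 to 21.4, counting error only) and 9.39-fold in aged cultures (4.01 to 26.9). After LPS the aged level was 0.157 of the young (0.113 to 0.214), and the fitted log2 fold change was -2.69 ± 0.33. *Il15ra* entered the fit through the LPS libraries, where it is high. Its changes with LPS and with age after LPS are therefore a description, given with no p-value. Untreated, the aged level was 0.228 of the young (0.0764 to 0.568) on 6 against 25 reads, and edgeR's adjusted p was 0.0782 where DESeq2 gave 0.0286. At these depths the LPS responses of the 2 ages could not be ranked: their log2 difference was -0.68 with a 95% interval of -3.05 to 1.68, and without batch 1 it was 0.74.

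The ligand *Il15* rose with LPS in young cultures. It had 4.48, 3.07, 3.02, 2.18 and 2.66 CPM in young and 23.1, 19.2, 10.9, 6.79 and 11.0 CPM in young LPS cultures, a log2 fold change of 2.19 ± 0.34 (adjusted p = 6.41e-06). In aged cultures it went from 2.00, 2.56, 2.40, 3.13 and 2.46 CPM to 8.48 CPM in culture 3 and 2.04 to 2.79 CPM in the other 4 (log2 fold change 0.54 ± 0.39, adjusted p = 0.248). Only aged LPS culture 3 was above the untreated aged range, and that culture was also the highest of its group for 6 of the 10 receptors. After LPS *Il15* was lower in aged than young cultures by -1.93 ± 0.34 (adjusted p = 0.000152), while the difference of the LPS responses, -1.65, had an adjusted p of 0.0614, which became 0.04995 with the batch block and 0.0337 in DESeq2. *Il2rb*, which with *Il2rg* forms the signalling part of the IL-15 receptor, had at most 7 reads in any library. Over the 20 libraries the genes whose log2 CPM was most like that of *Il15ra* were *Jak2* (Pearson r = 0.969) and *Il13ra1* (r = 0.967); the libraries share treatment and batch, so this is a description.

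**Figure D3:**
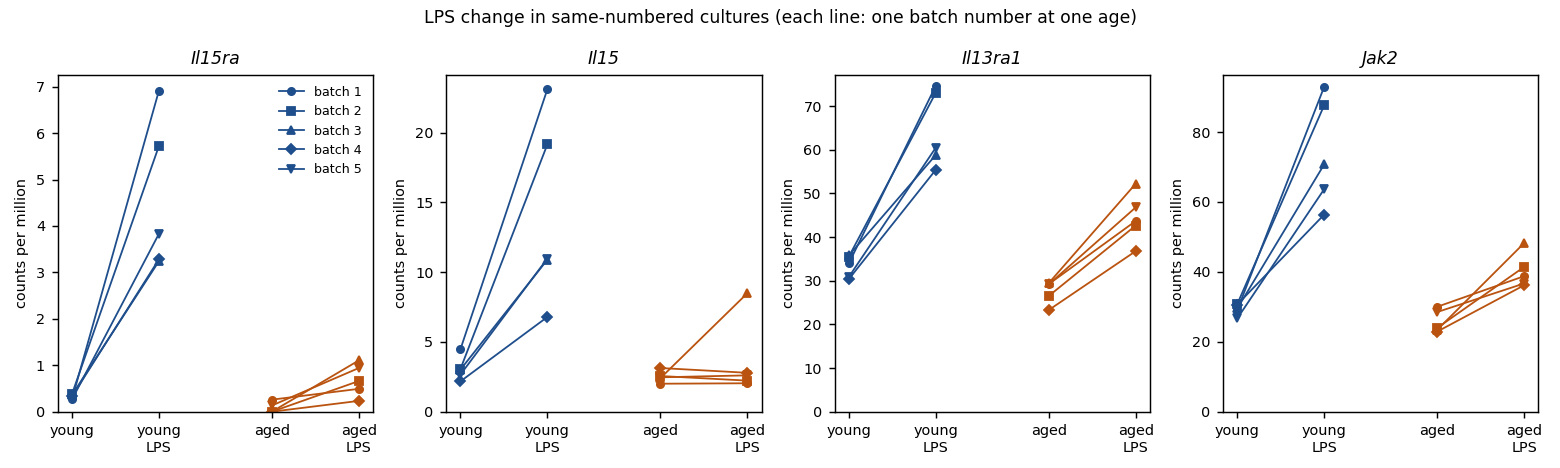
CPM (y axis, linear, from 0) of *Il15ra*, its ligand *Il15*, *Il13ra1* and *Jak2* before and after LPS in young (blue) and aged (orange) cultures; each line joins the untreated and LPS cultures of the same batch number. Batches 1 and 2 are the highest in all 4 young LPS panels and batch 3 in all 4 aged LPS panels, where *Il15* rises above 3.13 CPM in batch 3 alone.

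The upstream sequences of the most responsive gene, of the gene closest to it in pattern among the receptors and of a receptor that fell are shown, because the first and second rose with LPS and the third fell. They are the 250 bases before the RefSeq start site (build GRCm38.p6), 5′ to 3′ on the strand of the gene: chr2:11705043-11705292 (plus) for *Il15ra*, chrX:36111858-36112107 (plus) for *Il13ra1* and chr3:89913197-89913446 (minus) for *Il6ra*. Capitals mark matches, on either strand, to GAGGAA (an ETS core), GAAANNGAA (an IRF core), CACGTG (an E-box), TGANTCA (AP-1), TTCNNNGAA (a STAT site, GAS), TGACGTCA (CRE) or the NF-kappaB consensus.
Il15ra: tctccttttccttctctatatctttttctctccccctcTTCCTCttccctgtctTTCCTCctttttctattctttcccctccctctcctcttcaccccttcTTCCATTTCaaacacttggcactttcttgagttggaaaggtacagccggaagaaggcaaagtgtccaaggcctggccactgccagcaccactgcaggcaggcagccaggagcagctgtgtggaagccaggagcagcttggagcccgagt
Il13ra1: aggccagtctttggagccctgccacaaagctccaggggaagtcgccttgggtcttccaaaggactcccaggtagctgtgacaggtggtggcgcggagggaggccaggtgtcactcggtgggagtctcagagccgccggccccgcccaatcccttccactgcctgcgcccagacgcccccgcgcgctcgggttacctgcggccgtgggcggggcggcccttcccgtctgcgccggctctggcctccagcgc
Il6ra: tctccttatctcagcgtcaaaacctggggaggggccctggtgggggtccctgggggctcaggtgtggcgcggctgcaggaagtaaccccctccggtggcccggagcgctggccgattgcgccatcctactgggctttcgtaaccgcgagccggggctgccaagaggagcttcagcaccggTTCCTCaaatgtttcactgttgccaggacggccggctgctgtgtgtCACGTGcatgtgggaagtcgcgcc

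*Il15ra* has an IRF-core match that begins 149 bases before the start site and ETS cores that begin 212 and 196 bases before it. A second RefSeq start of the gene holds an AP-1 match, TGAGTCA, that begins 30 bases before it and an IRF-core match, GAAAGCGAA, that begins 30 bases after it. *Il6ra* has an E-box and an ETS core, and *Il13ra1* has none of these letters in this window. RefSeq start sites were at hand for 7 of the 10 genes. In the windows from 250 bases before to 50 bases after the start, the NF-kappaB consensus was matched by *Il4ra* and the IRF core also by *Il1rap*. The GAS and CRE letters were in none of the 8 windows. Of 32851 such windows in the genome, 28.3% hold the ETS core, 8.56% the IRF core, 8.46% the NF-kappaB consensus, 8.30% GAS, 7.81% AP-1, 7.15% the E-box and 1.79% CRE. A match is a description of letters and not of binding.

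*Il6ra* and *Il6st*, the binding and signalling chains of the IL-6 receptor, fell with LPS, while *Il6* went from at most 4 reads to 161 to 575 reads in young and 39 to 170 reads in aged cultures. *Il6ra*, on chromosome 3 at 89864059 to 89913196 (minus strand), had 98.9, 131, 121, 117 and 112 CPM in young and 72.1, 73.7, 77.0, 74.6 and 69.6 CPM in young LPS cultures. Aged cultures had 113, 112, 96.5, 102 and 101 CPM and aged LPS cultures 75.4, 86.4, 74.9, 75.3 and 74.1 CPM. Every LPS culture was below every untreated culture of either age. The gene fell by 0.66 ± 0.07 on the log2 scale in young (adjusted p = 7.59e-09) and fell by 0.44 ± 0.07 in aged cultures (adjusted p = 5.50e-06). The difference of 0.22 (95% interval 0.03 to 0.41) was not called (adjusted p = 0.175), nor was the age difference after LPS (0.07, adjusted p = 0.457). Untreated, aged against young was -0.15 (adjusted p = 0.144), with a within-batch difference of 0.19 in batch 1 and -0.16 to -0.32 in the other 4. Without batch 1 it was -0.23 and called (adjusted p = 0.0287).

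*Il6st*, on chromosome 13 at 112464070 to 112510086 (plus strand), moved less. It had 139 ± 5.18 CPM in young and 112 ± 6.55 CPM in young LPS cultures, with no overlap, and 131 ± 4.70 and 121 ± 4.52 CPM in aged and aged LPS cultures, with overlap (SD, n = 5). It fell by 0.31 ± 0.05 in young (log2; adjusted p = 2.71e-06) and fell by 0.12 ± 0.05 in aged cultures (adjusted p = 0.0351). The aged call was lost without batch 2 (adjusted p = 0.157), without batch 4 (0.0893) or without a filter on low counts (0.0762). The smaller fall in aged cells, a difference of 0.20 with a 95% interval of 0.06 to 0.33, was seen in 5 of 5 batches and had the lowest adjusted p of the 10 for the response difference, 0.0737. After LPS aged against young was 0.11 (adjusted p = 0.0780), the comparison that library size scaling or leaving out batch 4 turned into a call of higher. The ratio of *Il6ra* to *Il6st* per exon length was near 1 untreated, 0.919 to 1.21 in young and 0.906 to 1.16 in aged cultures. After LPS it was 0.775 to 0.953 and 0.755 to 0.953, lower by -0.34 and -0.32 on the log2 scale (exact permutation p = 0.0159 for each). The adjusted p of this permutation test, 0.0441 for each, spans 25 ratio tests that include *Il15ra*/*Il2rg*. *Il15ra* entered through the LPS libraries alone, and no adjustment without its ratio was run. Whether the *Il6ra*/*Il6st* calls hold without it was therefore not tested. Between ages the ratio of *Il6ra* to *Il6st* differed by -0.06 untreated and -0.04 after LPS (exact permutation p = 0.540 and 0.643). *Adam17*, the sheddase that cuts IL-6Rα from the surface, rose with LPS from 231 ± 9.76 to 593 ± 21.0 CPM in young and from 217 ± 2.19 to 519 ± 7.82 CPM in aged cultures. *Adam10*, a related sheddase, fell from 195 ± 7.40 to 130.4 ± 10.5 CPM in young and from 186 ± 13.0 to 134 ± 4.79 CPM in aged cultures (adjusted p = 3.39e-09 and 1.40e-07).

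*Il17ra*, on chromosome 6 at 120463247 to 120487559 (plus strand), encodes the shared chain of the IL-17 receptors, which signals through Act1. It had the deepest fall with LPS. Young cultures went from 40.1, 41.8, 45.3, 42.8 and 36.8 CPM to 26.4, 24.7, 25.7, 21.0 and 19.8 CPM. Aged cultures went from 34.1, 37.5, 43.3, 41.3 and 33.7 CPM to 17.0, 20.5, 24.2, 23.5 and 16.6 CPM. LPS and untreated ranges did not meet at either age, and the ages overlapped in both states. The log2 fold change with LPS was -0.82 ± 0.11 in young (adjusted p = 4.88e-07) and -0.90 ± 0.11 in aged cultures (adjusted p = 2.08e-07), a difference of -0.08 with a 95% interval of -0.39 to 0.23. After LPS the age difference of -0.21 had an adjusted p of 0.176, which became 0.0479 with the batch block. The partner chain *Il17rc* had at most 2 reads in any library.

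*Il1rap*, on chromosome 16 at 26581704 to 26730117 (plus strand), was measured on 7 to 30 reads per library and was called in none of the 5 comparisons. It had 0.552, 1.02, 1.27, 1.05 and 1.13 CPM in young, 1.38, 0.995, 1.24, 1.19 and 2.21 CPM in young LPS, 0.970, 1.14, 1.08, 1.37 and 0.866 CPM in aged and 0.773, 1.57, 0.897, 0.774 and 0.506 CPM in aged LPS cultures. All 4 ranges overlapped. The log2 fold change with LPS was 0.48 in young (95% interval -0.08 to 1.03) and -0.29 in aged cultures (-0.87 to 0.29). After LPS aged against young was -0.66 (adjusted p = 0.0821, and 0.0225 without batch 2). *Il1r1*, the ligand-binding chain of the IL-1 receptor, went with LPS from 2 to 7 reads to 19 to 28 reads in young and from 1 to 3 reads to 9 to 21 reads in aged cultures. It reached the level of the filter on low counts in 0 of 10 untreated libraries and so entered the fit through the LPS libraries alone, and these reads are a description with no test. Its ligand *Il1b*, which also passed through LPS libraries, reached 98.5 to 633 CPM in young LPS and 15.9 to 191 CPM in aged LPS cultures.

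**Figure D4:**
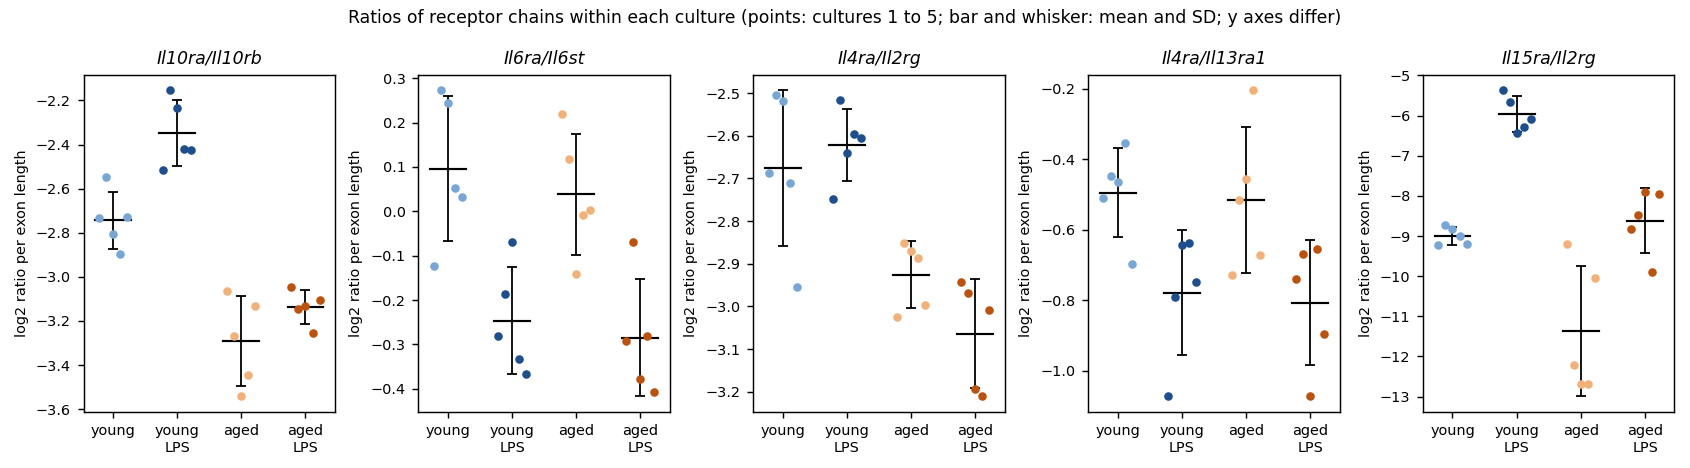
Log2 ratio of paired receptor chains per exon length (y axis, scale differs between panels) within each culture of the 4 groups (x axis); points are cultures in order of batch number, and the bar and whisker are the mean and SD. The aged points of *Il10ra*/*Il10rb* lie below all young points in both states, and those of *Il6ra*/*Il6st* overlap the young points in both states; the low *Il15ra*/*Il2rg* points of untreated aged cultures rest on 0 to 4 reads.

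The kinases and STAT factors behind these receptors were taken as a list. Counts over this list and those that follow stand beside the shares of all genes: with LPS 31.2% rose and 33.5% fell in young and 27.5% and 26.9% in aged cultures, and after LPS 15.0% were lower and 14.0% higher in aged cells. Of 14 JAK and STAT pathway genes, 13 were tested; LPS raised 8 and lowered 5 in young cultures and raised 8 and lowered 4 in aged cultures, and after LPS 7 were lower and 0 higher in aged cells. *Jak2* rose from 29.4 ± 1.66 to 74.3 ± 15.6 CPM in young and from 25.8 ± 3.26 to 40.2 ± 4.91 CPM in aged cultures, and its LPS response differed between ages by -0.69 ± 0.17 (log2, adjusted p = 0.0132). *Stat2* reached 134 ± 24.9 CPM in young LPS and 52.7 ± 24.3 CPM in aged LPS cultures, a response difference of -1.23 ± 0.30 (adjusted p = 0.0155), and *Stat3* differed by -0.37 ± 0.10 (adjusted p = 0.0239). *Tyk2*, the kinase of IL-10Rβ, was lower in aged cultures untreated (-0.34, adjusted p = 0.0195) and after LPS (-0.54, adjusted p = 5.48e-05). *Jak1* rose with LPS by 0.54 in young and 0.48 in aged cultures, and *Jak3*, which pairs with the common γ chain, had log2 fold changes of -0.27 (adjusted p = 0.0499) and -0.26 (adjusted p = 0.0692). The *Jak3* calls turned on the model: with the batch block the adjusted p was 0.0306 and 0.0433, and in DESeq2 0.0861 and 0.0884.

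Of 14 genes of the MyD88 and Act1 arm, LPS raised 8 and lowered 3 in young and raised 6 and lowered 2 in aged cultures; after LPS 5 were lower and 1 higher in aged cells. The 11 and 8 of 14 that changed with LPS stand beside 64.6% and 54.4% of all genes. *Nfkbiz*, a co-activator induced by IL-1 and IL-17, went from 19.7 ± 1.18 to 230 ± 27.8 CPM in young and from 13.9 ± 1.95 to 152 ± 8.07 CPM in aged cultures. *Myd88* was the member of this list whose LPS response differed between ages (-0.38 ± 0.10, adjusted p = 0.0230). Among 16 feedback genes, 2 (*Socs1*, *Cish*) reached the filter's level in fewer than 5 of the 10 untreated libraries and passed through the LPS libraries. Of the other 14, 7 were lower in aged cultures after LPS, where 15.0% of all genes were lower. Of the 16, 2 were higher, beside 14.0% of all genes. *Socs3*, the feedback inhibitor of gp130 signalling, reached 69.4 ± 20.9 CPM in young LPS and 35.6 ± 14.7 CPM in aged LPS cultures (log2 fold change -0.96 ± 0.20, adjusted p = 0.000923, with overlap).

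Genes known as targets of IL-10 and IL-6 rose with LPS in 9 of 10 tested cases at each age, with a median log2 fold change of 2.20 in young and 1.64 in aged cultures, and 8 of the 10 were lower in aged cells after LPS, against 15.0% of all genes. *Il1rn*, the IL-1 receptor antagonist, was not among the 8: it reached 471 ± 62.5 CPM in young LPS and 345 ± 58.8 CPM in aged LPS cultures, with overlap (adjusted p = 0.0803, 0.0448 with the batch block and 0.202 in DESeq2). *Bcl3*, which was, stood at 24.6 ± 1.67 against 15.7 ± 1.31 CPM (log2 fold change -0.65 ± 0.10, adjusted p = 2.96e-05). Of 16 targets of IL-4 and IL-13, 9 were tested, and LPS lowered 5 in young cultures, beside 33.5% of all genes. Of the 9, *Cish* reached the filter's level in no untreated library and passed through the LPS libraries. LPS raised 2 of the other 8 in young cultures, beside 31.2% of all genes. Of these 8, 1 was lower in aged cultures after LPS, beside 15.0% of all genes. Untreated, 2 of the 9 were lower in aged cultures, beside 7.81% of all genes. *Mrc1*, the mannose receptor, was lower in aged cultures untreated, at 41.5 ± 8.89 against 86.4 ± 13.2 CPM (log2 fold change -1.06 ± 0.15, adjusted p = 8.68e-05), and after LPS, at 28.8 ± 8.17 against 52.1 ± 4.44 CPM.

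Of 31 interleukin genes listed as ligands, 8 passed the filter on low counts. Of the 8, 4 (*Il6*, *Il27*, *Il36g*, *Il1b*) reached the filter's level in fewer than 5 of the 10 untreated libraries and passed through the LPS libraries where they are high, so they are left out of the counts. The other 4 (*Il1a*, *Il1rn*, *Il15*, *Osm*) rose with LPS in 4 of 4 cases in young and 3 of 4 in aged cultures, beside 31.2% and 27.5% of all genes, and 3 were lower in aged cells after LPS, beside 15.0%. Of 37 other interleukin receptor chains, 13 were tested. Of the 13, 2 (*Il1r1*, *Il1rl2*) reached the filter's level in fewer than 5 of the 10 untreated libraries and passed through the LPS libraries. Of the other 11, 2 were lower in aged cells after LPS, beside 15.0% of all genes. The 1 gene among the 13 called higher entered through the untreated aged libraries and is left out of the counts. Among the lower was *Il7r* (16.1 ± 2.33 against 8.96 ± 3.00 CPM, adjusted p = 0.0335, but 0.151 in DESeq2). The higher gene, named after its values were seen, was *Sigirr*, a member of the IL-1 receptor family that dampens signalling, with 0 to 1 reads in young LPS and 4 to 10 reads in aged LPS cultures, and 2 to 10 against 11 to 23 reads untreated. It entered the fit through the untreated aged libraries, where it is high, and its reads are given with no test. *Il1rl1*, the IL-33 receptor chain that pairs with IL-1RAcP, went with LPS from 14.0 ± 1.82 to 5.30 ± 1.31 CPM in young cultures. In aged cultures, lower untreated, it went from 9.48 ± 0.952 to 6.31 ± 0.858 CPM. The LPS response, aged minus young, differed by 0.80 ± 0.20 on the log2 scale (adjusted p = 0.0160). Of 9 genes of receptor shedding and traffic, 8 were tested, and after LPS 3 were lower and 0 higher in aged cells, beside 15.0% and 14.0% of all genes. With LPS 4 rose and 3 fell in young and 5 rose and 3 fell in aged cultures.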

How the data were processed

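The authors deposited raw read counts per Ensembl gene from poly(A)-selected, stranded paired-end libraries, aligned to GRCm38 with STAR 2.6.1d and counted with featureCounts 1.5.1; per the submitters' processing notes FastQC 0.11.8 and DESeq2 were also used. Strand, overlap and multimapping settings of the counting are not given in the sources used here. Gene names, positions and exon lengths came from GENCODE vM21, which held 55227 of the 55487 identifiers. Counts were fitted with edgeR 4.0.16 (quasi-likelihood test, TMM scaling, group as the only term, filterByExpr) over all 20 libraries, with Benjamini-Hochberg adjustment over 12799 genes. Intervals are 95% intervals from the standard error, which was derived from the F statistic. The fit was tested on simulated data. Chain ratios used log2 counts with an offset of 0.5, exact permutation of cultures and adjustment over 25 tests. These 25 include the tests of *Il15ra*/*Il2rg*, and no adjustment without them was run. Alternatives were DESeq2 1.42.0, other scalings and filters, a batch block, the compared groups alone, a fold threshold and leaving out each batch. The numbers pair the cultures because the labels name them as batches; deviations of same-numbered cultures correlated at a mean r of 0.268 within an age and 0.0851 between ages. Exact intervals and floors cover counting error only. All 10 receptors are named in every comparison; from other lists, at most the 3 called genes with the largest change and a mean of at least 1 log2 CPM, plus fixed ligands, partner chains and kinases. The receptors and the lists were chosen with earlier results of these data known.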

Additional observations from a re-analysis of the deposited data

Results flagged for a closer look

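In 2 of 40 groups of 5 values, 1 culture stood far from the other 4 (Dixon's test at 95%, which chance passes in about 1 of 20 groups). *Il10rb* in aged LPS culture 3 was 168 CPM, beside 131 to 136 CPM in the others. Without batch 3 the LPS rise in aged cultures was 0.57 instead of 0.60 (log2), and aged against young after LPS was -0.33 instead of -0.27. *Il6ra* in aged LPS culture 2 was 86.4 CPM, beside 74.1 to 75.4 CPM in the others. Without batch 2 the LPS change in aged cultures was -0.46 instead of -0.44, and both LPS calls were kept. What set these cultures apart was not tested.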

How the results depend on the processing

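Of 576 refits of single receptors, 552 kept the direction and the side of the threshold, 9 lost a call, 14 gained a call and 1 changed sign. The count of receptors lower in aged untreated cultures was 3 and became 1 with a log2 fold change of at least 0.5 as well; leaving out each batch gave 1 (without batch 2, *Il10ra* alone) to 4. The response difference between ages was called for 0 receptors and for 1, *Il6st*, with library sizes alone. Leaving out each batch gave 9 to 9 receptors with LPS in young, 8 to 9 in aged, 4 to 6 for age after LPS and 0 to 0 for the response difference. The response difference of *Il15ra* ran from -1.40 (without batch 3) to 0.74 (without batch 1). The batch block changed the call of *Il13ra1* untreated and of *Il17ra* and *Il2rg* after LPS, to 4 and 7 receptors lower in aged cultures, and no other receptor's call.

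The main chain ratio tests called 1 ratio for age untreated, 3 for LPS in young, 2 for LPS in aged, 3 for age after LPS and 0 for the response difference. With the sign-flip test within batches (the replicate block) or with a batch left out these counts were 0 in every comparison, since the smallest adjusted p those designs gave was 0.112 and 0.0794; every called ratio kept its direction there. With an offset of 5 counts, the *Il15ra*/*Il2rg* change with LPS in aged cultures was 0.91 instead of 2.75 (log2). Its response difference was -1.37 instead of -0.29, so this ratio depends on the offset. The main counts include it for LPS at both ages and for age after LPS. Its upper chain had 4 to 6 reads in untreated young and 0 to 4 reads in untreated aged cultures. That chain entered through the LPS libraries, so the ratio is a description and not a test. The other ratios called were *Il10ra*/*Il10rb* and *Il6ra*/*Il6st* for LPS in young and *Il6ra*/*Il6st* for LPS in aged cultures. For age after LPS they were *Il10ra*/*Il10rb* and *Il4ra*/*Il2rg*. Ratios that were not called changed sign when a batch was left out. For *Il6ra*/*Il6st* the range was -0.16 to 0.024 for age untreated, -0.077 to 0.029 for age after LPS and -0.043 to 0.11 for the response difference. For *Il4ra*/*Il13ra1* it was -0.063 to 0.029, -0.12 to 0.072 and -0.15 to 0.10. For *Il4ra*/*Il2rg* with LPS in young it was -0.020 to 0.098, and for the *Il15ra*/*Il2rg* response difference -0.96 to 0.51.

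Depth limits *Il15ra* and *Il1rap*, which a minimum of 10 counts in every library removes; the settings of the read counting and the number of long-term cultivations were not at hand.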
